A study of Mus musculus with 8 samples.

Results

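Sp7 and Runx2 are transcription factors known for driving skeletal cells toward bone, and 10 genes around them are described here in the embryonic mouse trachea. They are Sp7, the 3 Runx genes, the homeobox genes Dlx5, Dlx6 and Nkx3-2, the phosphatase gene Alpl, the ligand gene Ihh and the receptor gene Pth1r. The 10 genes were picked by symbol among the 23478 symbols of each count table, with their mutant and control values already known. Their mutant-control differences are therefore given as a description, with no p-value.

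RNA sequencing was done on tracheas of E13.5 embryos in a pair of experiments. The sorted cells came from tracheas of Bmp4flox/flox, γSMAeGFP embryos with a Cre allele (2 libraries, called Bmp4 mutants) and without it (3 libraries, called controls). Every embryo of that experiment carried both floxed Bmp4 alleles and the smooth muscle reporter, and only the mutants carried Cre. The sort kept cells negative for the epithelial protein EPCAM and for GFP, and the labels call them chondroblasts, the cells that form cartilage. The other experiment took whole tracheas from 1 Wls flox/flox, ShhCre+ library and 2 control libraries, where Cre is expressed from Shh, a gene of the airway epithelium. Bmp4 encodes a secreted growth factor, and Wls encodes the carrier that Wnt proteins need to leave the cell. Whether replicate libraries stem from different embryos is not stated in the labels. The p-values thus reflect variation among libraries that could be technical in part.

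As background, Runx2 and Sp7 (osterix) act in sequence when osteoblasts form, and both are also expressed in cartilage cells as they mature toward hypertrophy. Ihh, made by prehypertrophic chondrocytes, and the receptor encoded by Pth1r belong to a feedback loop that sets how fast cartilage matures, and Dlx5 and Dlx6 lie upstream of Runx2 and Sp7 in several skeletal tissues. Tracheal cartilage rings arise from splanchnic mesenchyme and depend on Sox9, and they stay cartilage for much longer than the cartilage models of long bones.

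The Bmp4 mutant libraries held 12964287 and 15462780 counts and their controls 48876948 to 55492747. The tracheas held 24596836 counts in the Wls mutant against 27237573 and 31399982 in the controls. Levels are CPM (counts scaled to a common library size), scaled with edgeR's TMM factors. Bmp4 stood at 24.1 and 32.2 CPM in the Bmp4 mutants and at 99.2 to 124 CPM in the controls, and Wls at 65.9 CPM in the Wls mutant against 154 and 145 CPM in its controls. The Bmp4 mutant libraries also carried counts on genes that are silent in the controls. Over 2845 protein-coding genes below 0.1 CPM in every control, the mutants held 25.03 and 21.46 counts per kb of exon, against 0.158 to 0.212 in the controls. The tracheas held 1.59 to 1.99. The sorted controls are low here by the choice of genes. Olfactory and vomeronasal receptor genes, not chosen on the controls, summed to 2455 and 2203 CPM in the Bmp4 mutants. Their sums were 10.9 to 14.8 CPM in the sorted controls. Over the silent genes the signal varied widely, in mutant 1 from 0 counts per kb at the 10th percentile through 20.1 at the median to 58.2 at the 90th. Its mean rate is called the background below, so a prediction for 1 gene is rough. The source of the signal was not tested. Cartilage markers summed to 671 and 1798 CPM in the Bmp4 mutants and to 2686 to 5751 CPM in the controls, over 12 genes including Sox9, Col2a1 and Acan. Only Matn1 of them lay below 1 CPM in the controls.

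Sp7 was the 1 gene of the 10 that was lower in every mutant library of both experiments. It encodes a zinc finger transcription factor and lies at chr15:102356606-102367182 on the minus strand of mm10, with 3348 bases of exon in the GENCODE annotation. The sorted controls read 41.3, 31.4 and 21.1 CPM, and the Bmp4 mutants read 7.60 and 6.17 CPM. The lowest control was still well above both mutants, and the controls themselves spanned a wide range. The log2 fold change was -2.19 ± 0.34 (SE), a 4.54-fold higher mean in the controls.

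The background alone predicts most of the Sp7 counts found in the Bmp4 mutants. Mutant 1 had 104 counts where the background rate over its exon length gives 83.8, and mutant 2 had 109 where it gives 71.9. In counts per kb, 66.7% of silent genes lay below Sp7 in mutant 1 and 75.3% in mutant 2. Sp7 therefore sat inside the range of genes that the controls do not express. With the rate taken from silent genes of like GC content, a setting added after the data were seen, the prediction was 99.6 and 63.9 counts. With the background subtracted, Sp7 stood at 1.48 and 2.10 CPM in the mutants, and the control mean was 17.5-fold higher. The subtracted log2 fold change was -3.57 ± 0.41 (SE). Since the remainder is smaller than the spread of the silent genes, the size of this fold is uncertain.

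**Figure D1:**
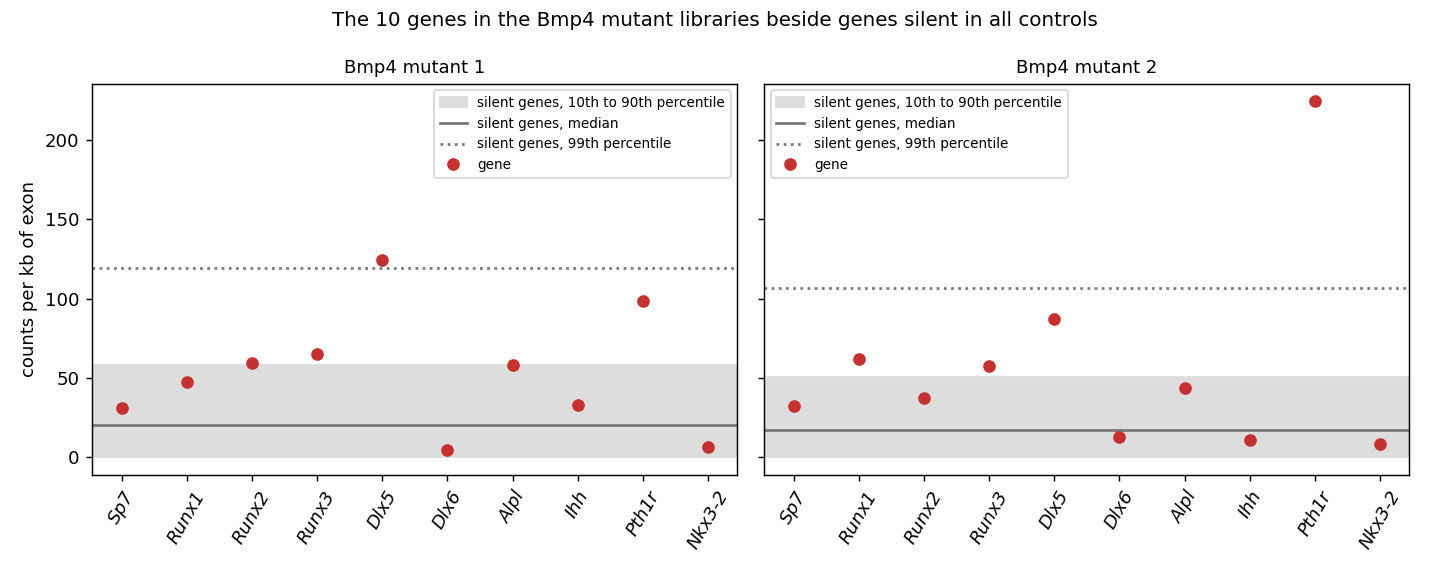
Counts per kb of exon (linear axis) of the 10 genes, as points, in each Bmp4 mutant library, over a grey band from the 10th to the 90th percentile of the 2845 silent genes, with their median as a solid line and their 99th percentile as a dotted one. Pth1r and Dlx5 lie above at least 97.8% of silent genes in both libraries, while Sp7 (66.7% and 75.3%), Ihh, Dlx6 and Nkx3-2 lie inside the band.

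In the tracheas Sp7 had 39 counts in the Wls mutant against 148 and 168 in the controls. That is 1.60 CPM (95% Poisson interval 1.14 to 2.19, counting error only) against 5.54 and 5.20 CPM. The controls differed by 0.09 in log2 CPM, and the mutant was lower than their mean by a log2 difference of -1.70. With 1 mutant library there is no replicate check. A rule of size was used in place of a test: a log2 difference of at least 1 from each control, in the same direction, at a mean log2 CPM of at least 0. It took 1.83% of 14181 genes in either direction and 1.04% as lower. Sp7 passed it.

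Cartilage markers moved with Sp7 in both experiments. In the tracheas they summed to 714 CPM in the Wls mutant against 1967 and 1703 CPM in the controls. Per 1000 CPM of these markers, Sp7 was at 6.63, 8.32 and 7.62 CPM in the sorted controls and at 2.76 and 3.14 CPM in the trachea controls. The Wls mutant had 2.22. The Bmp4 mutants read 11.96 and 3.92 as deposited, on either side of the controls, and 2.71 and 1.39 with the background subtracted, below all 3. The part of the cartilage markers in the Sp7 difference was not tested further. In bulk RNA, fewer cells of a type and less RNA per cell cannot be told apart.

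**Figure D2:**
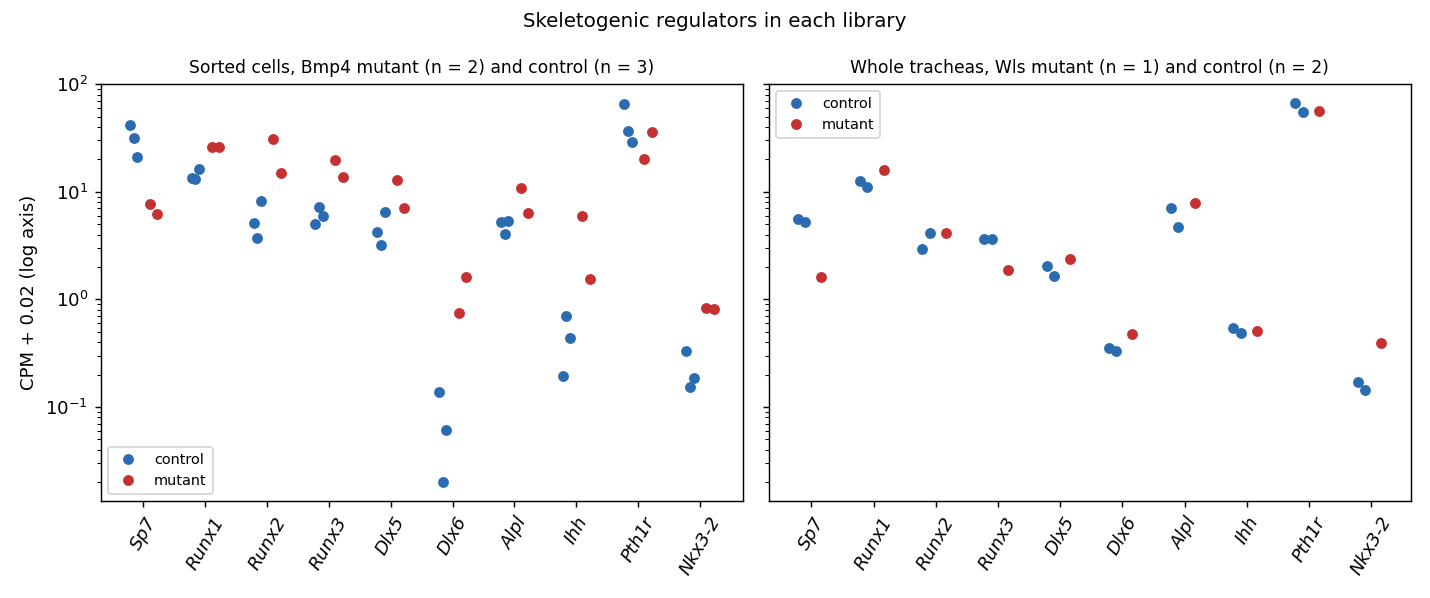
Level of each of the 10 genes (CPM plus a small constant, log axis), with each library as a point, controls in blue and mutants in red, sorted cells on the left and tracheas on the right. Sp7 was 6.17 and 7.60 CPM in the Bmp4 mutants against 21.1 to 41.3 CPM in the controls, and 1.60 against 5.20 and 5.54 CPM in the tracheas.

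The 3 Runx genes encode the DNA-binding subunits of the core binding factor. They lie at chr16:92601466-92826149 (Runx1, minus strand), chr17:44495987-44814797 (Runx2, minus strand) and chr4:135120652-135177990 (Runx3, plus strand). Runx1 is best known from blood formation, Runx2 from bone, and Runx3 from sensory neurons and T cells, and Runx1 and Runx3 are also expressed in cartilage precursors. All 3 proteins bind the same core, ACCACA on one strand and TGTGGT on the other. The most upstream RefSeq promoter of each of the 3 genes (GRCm38.p6, from 250 bases before the start to 50 after it) held a pair of these cores separated by the bases ga. The windows are shown because this pair is shared by the 3 paralogs whose levels are compared next. They are 30 bases each, 5′ to 3′ on the strand of the gene, with the cores in capitals.
Runx1: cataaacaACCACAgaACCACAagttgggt
Runx2: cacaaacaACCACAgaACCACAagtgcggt
Runx3: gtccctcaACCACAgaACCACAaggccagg

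The windows lie at chr16:92826025-92826054 (minus strand) for Runx1, chr17:44814583-44814612 (minus strand) for Runx2 and chr4:135120503-135120532 (plus strand) for Runx3. All 3 share a run of 18 bases, and Runx1 and Runx2 share 22. The pair was searched on both strands after the sequences had been read, and it occurred in 4 of 32851 promoters (0.0122%). The other promoter was that of Gm16225, whose window overlaps that of Runx3 on the opposite strand. A lone TGTGGT core, on either strand, occurred in 16.8% of promoters. Of the 10 genes, 7 had entries in the promoter table. A match is a description of the letters and not a site of binding.

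Runx2 was higher in both Bmp4 mutant libraries than in any control, but the mutants differed by more than 2-fold. They read 31.0 and 14.95 CPM, from 424 and 264 counts, and the controls read 5.14, 3.66 and 8.15 CPM. The log2 fold change was 2.02 ± 0.45 (SE). The background over its 7092 bases of exon predicts 178 and 152 counts, a large share of the mutant counts if the mean rate held for this gene. With it subtracted, Runx2 was 18.0 and 6.33 CPM, and mutant 2 fell within the range of the controls. Runx2os1 overlaps Runx2 on the opposite strand, and the strand setting of the counting is not given in the sources used here.

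Runx1 and Runx3 followed the same outline with closer replicates. Runx1 read 25.8 and 26.2 CPM in the mutants against 13.4, 13.2 and 16.3 CPM in the controls, a log2 fold change of 0.86 ± 0.22 (SE). Subtraction brought its mutants to 12.2 and 17.1 CPM, on either side of the controls. Runx3 read 19.9 and 13.6 CPM in the mutants against 4.96, 7.24 and 5.90 CPM in the controls, a log2 fold change of 1.47 ± 0.34 (SE). Runx3 was the only gene of the 10 whose mutants stayed above every control after subtraction, at 12.2 and 8.52 CPM. The background predicts 105 and 89.6 of its 272 and 240 mutant counts. In counts per kb it lay above 92.4% and 93.0% of silent genes, so some silent genes reached further.

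As deposited, markers of other cells that express Runx1 and Runx3 were also higher in the Bmp4 mutants. A list of 10 leukocyte markers, none of them at 0 in any sorted library, summed to 496 and 390 CPM in the mutants against 196, 275 and 303 CPM in the controls. Subtraction left 448 and 355 CPM. A list of 9 neuron and neural crest markers summed to 677 and 861 CPM against 412, 626 and 514 CPM. Subtraction left 589 and 797 CPM, and mutant 1 then lay below control 2. The part of these cells in the Runx1 and Runx3 values was not tested.

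In the tracheas Runx3 had the widest difference of the Runx genes. Runx1 read 15.97 CPM in the Wls mutant against 12.5 and 10.9 CPM in the controls, and Runx2 read 4.11 against 2.92 and 4.11 CPM, so its mutant did not stand outside the controls. Runx3 read 1.85 CPM (95% Poisson interval 1.35 to 2.47) against 3.59 and 3.62 CPM. Its log2 difference of -0.94 came just short of the rule of size, while that of Runx1 was 0.44. The leukocyte list read 124 CPM in the Wls mutant against 121 and 98.9 CPM in the controls. Runx3 thus had opposite signs in the experiments, above its controls in the sorted cells and below them in the tracheas, and the difference between the experiments was not tested.

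Dlx5 and Dlx6 are neighbouring homeobox genes at chr6:6877805-6882085 and chr6:6863334-6868568, and their levels were far apart. Dlx5 read 12.9 and 7.02 CPM in the Bmp4 mutants and 4.22, 3.15 and 6.40 CPM in the controls, a log2 fold change of 1.12 ± 0.49 (SE). The gap between mutant 2 and control 3 was small. Dlx5 lay above 99.2% and 97.8% of silent genes, and after subtraction it stood at 10.3 and 5.29 CPM, with mutant 2 inside the range of the controls. In the tracheas it read 2.34 CPM in the Wls mutant against 2.02 and 1.64 CPM in the controls.

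Dlx6 was at the floor of detection. It had 10 and 28 counts in the Bmp4 mutants, where the background predicts 55.5 and 47.6, and 6, 0 and 2 in the controls. Its log2 fold change of 4.34 ± 1.11 (SE) was the highest of the 10, yet its mutant counts were under the background in both libraries, also with the rate of like GC content (67.2 and 55.1). The exons of Dlx6 also overlap those of Dlx6os2 on the opposite strand. The tracheas had 11 Dlx6 counts in the mutant and 9 and 10 in the controls.

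Alpl (chr4:137741733-137796384, minus strand) encodes tissue-nonspecific alkaline phosphatase, which frees phosphate for mineral and is a target of the osteoblast programme. It read 10.7 and 6.29 CPM in the Bmp4 mutants and 5.25, 4.01 and 5.38 CPM in the controls, a log2 fold change of 0.80 ± 0.43 (SE). Subtraction gave 6.13 and 3.22 CPM, on either side of the controls. In the tracheas it read 7.88 CPM in the Wls mutant against 7.08 and 4.64 CPM in the controls. The 2 controls were further apart than the mutant was from the nearer one.

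Ihh (chr1:74945315-74951672, minus strand), the hedgehog ligand of cartilage, was close to absent in the sorted controls at 0.176, 0.684 and 0.416 CPM. The Bmp4 mutants read 5.99 and 1.53 CPM, from 82 and 27 counts. The background predicts 61.8 and 53.0 counts, so mutant 2 was under it and the subtracted values fell on either side of 0. The rate of silent genes of like GC content predicts 31.6 and 19.7 counts, and both mutants were then above it, by 3.68 and 0.411 CPM. In the tracheas Ihh had 12 counts in the mutant and 14 and 15 in the controls.

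Pth1r (chr9:110722085-110747145, minus strand) encodes the receptor for parathyroid hormone and its related protein, and it was the most abundant of the 10 genes by exon length. It read 20.2 and 35.7 CPM in the Bmp4 mutants and 64.8, 36.4 and 29.3 CPM in the controls. Mutant 2 lay between controls 2 and 3, so the groups overlapped, with a log2 fold change of -0.64 ± 0.39 (SE). The background predicts only 70.3 of its 277 counts in mutant 1 and 60.2 of 630 in mutant 2. The tracheas showed no separation either, at 56.6 CPM in the Wls mutant against 67.3 and 55.3 CPM in the controls.

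Nkx3-2 (Bapx1, at chr5:41761483-41764501 on the minus strand), a homeobox repressor of the sclerotome and of joints known to hold Runx2 down in chondrocytes, was barely detected. It had 11 and 14 counts in the Bmp4 mutants, 16, 6 and 8 in the controls, and 9, 4 and 4 in the tracheas. The background predicts 43.0 and 36.9 counts in the mutants, more than was found. The rate of the 25 silent genes of like GC content predicts 12.5 and 8.80, so mutant 1 was then just under it and mutant 2 above it.

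**Figure D3:**
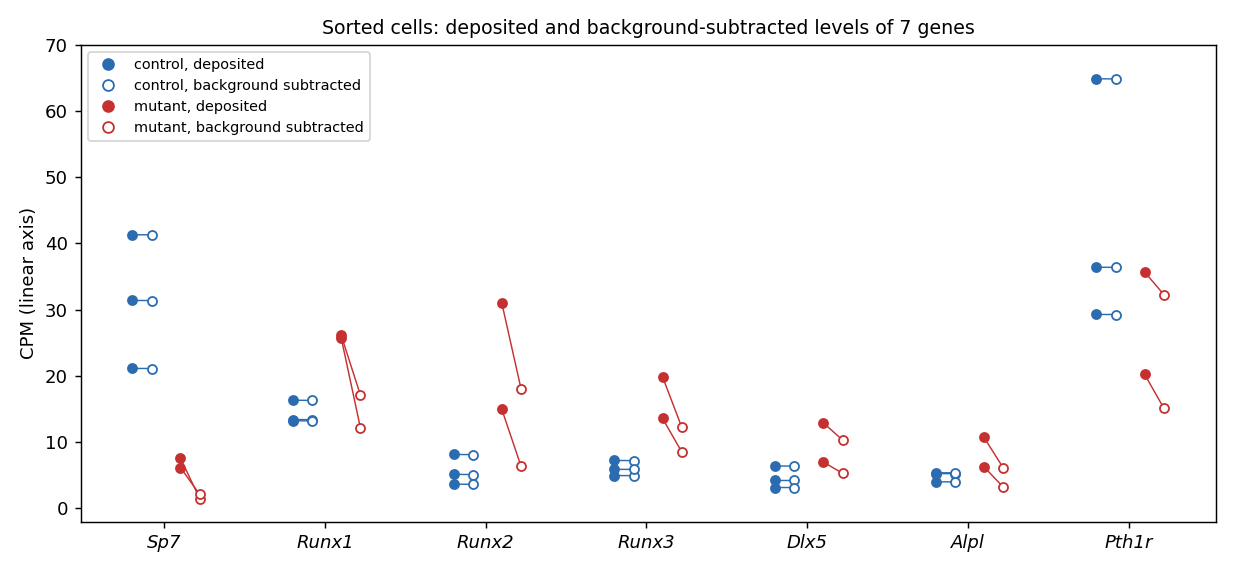
Levels of the 7 genes other than Dlx6, Ihh and Nkx3-2 in the sorted cells (CPM, linear axis), with each library as a filled point as deposited and an open point after subtraction, controls in blue and mutants in red. The mutants of Sp7 stay below the controls (1.48 and 2.10 CPM), those of Runx3 stay above (12.2 and 8.52 CPM), and those of Runx1, Runx2, Dlx5 and Alpl come to overlap them.

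Counted over the sorted cells as deposited, 8 of the 10 genes had both mutants above every control, Sp7 had both below, and Pth1r overlapped. Over the 21665 genes tested, 48.2% had mutants above and 25.6% had mutants below. In edgeR's quasi-likelihood test with Benjamini-Hochberg adjustment at 0.05, 1 of the 10 (Sp7) was called lower and 5 (Runx1, Runx2, Runx3, Dlx6 and Ihh) higher. The shares over all genes were 15.6% lower and 39.3% higher, 54.9% in all. With the replicate number as a block, 4 of the 21665 genes were called and none of the 10 was. The same contrast chose the genes, so these calls are counts from which nothing is read. Without mutant 1 and without mutant 2, the log2 fold changes were -2.35 and -2.04 for Sp7 and 0.85 and 0.85 for Runx1. They were 1.38 and 2.46 for Runx2 and 1.16 and 1.72 for Runx3. For Dlx6 they were 4.8 and 3.7, and for Ihh 1.83 and 3.81. All genes had a median log2 fold change of 0.53. Scaling on the genes above background moved it to 0.88 and the calls to 942 lower and 9694 higher, from 3381 and 8507. With the background subtracted, only Sp7, Dlx5 and Pth1r were high enough to be tested. That minimum was set on the mean over mutants and controls together, so 1 high group could carry a gene past it. Sp7 reached it through its controls (mean 9.34 CPM per kb, mutants 2.27 and 1.84). Dlx5 reached it through its mutants (9.09 and 4.93 CPM per kb, control mean 3.23). Sp7 was called lower, as were 0.502% of genes, and none of the 3 was called higher, as were 1.24%. From these calls, too, nothing is read. With background rates taken from silent genes of like GC content, none of these 3 was called. Sp7 then had a log2 fold change of -3.90.

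In the tracheas 7 of the 10 genes reached the minimum level, all but Dlx6, Ihh and Nkx3-2, and Sp7 alone of the 7 passed the rule of size. The Wls mutant lay below both controls for Sp7, Runx3 and no other gene of the 7, and above both for Runx1, Dlx5 and Alpl. Over all genes it lay below both for 37.2% and above both for 37.9%.

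Compared per kb of exon, the sorted controls ranked Pth1r first and Dlx6 last. The levels were 15.5 ± 6.70 CPM per kb for Pth1r, 9.34 ± 3.01 for Sp7, 3.23 ± 1.16 for Dlx5, 1.94 ± 0.299 for Alpl and 1.92 ± 0.233 for Runx1 (SD, n = 3). Runx3 followed at 1.44 ± 0.274 and Runx2 at 0.796 ± 0.322, then Ihh, Nkx3-2 and Dlx6 at 0.172, 0.119 and 0.0239 CPM per kb. The ranges of neighbours overlapped for Pth1r and Sp7, for Alpl and Runx1 and for Ihh and Nkx3-2, and the other neighbours were separate. The trachea controls had Pth1r at 21.9, Alpl at 2.32, Sp7 at 1.60, Runx1 at 1.58 and Dlx5 at 1.29 CPM per kb. Sp7 thus stood above Alpl in the sorted cells and below it in the whole trachea. Its control mean in CPM was 5.83 times as high in the sorted cells, while that of Pth1r was 0.709 times as high. Kits and sample kind differ between the tables, so these ratios have no test.

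The genes most like Sp7 over the 5 sorted libraries, by Pearson correlation of log2 CPM among 11757 genes, were Aars2 (0.9998), Nudt19 (0.9996) and Aldh2 (0.9996). For Runx2 they were Tpmt (0.9996), Ddx19b (0.9994) and Ggt5 (0.9975), and for Dlx5 Vwa8 (0.9974), Stard13 (0.9963) and Slc35d2 (0.993). With 5 libraries in 2 groups that also differ in depth and background, these values describe only how levels ran across the libraries.

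The other genes of the pathway were read from 7 lists of 101 genes, chosen with earlier results of these data known. Of the 98 tested in the sorted cells, 23 fell and 27 rose in the Bmp4 mutants by edgeR, with a median log2 fold change of -0.03 against 0.53 over all genes. These are 23.5% and 27.6% of the 98, against 15.6% and 39.3% of all genes tested. All 23 that fell had a mean of at least 5 CPM, but only 5 of the 27 that rose did, and 4 of the 27 were above background enough to be tested after subtraction. Of the 60 tested with the background subtracted, Gli1 and Sox6 fell and none rose, with a median of -0.26 against -0.01. Subtracted medians, here and for the lists below, cover only the genes tested after subtraction. A deposited and a subtracted median therefore do not compare the same genes. At an unadjusted p under 0.05 the subtracted counts were 17 lower and 10 higher. In the tracheas 6 were lower and 1 higher by the rule of size, of 75 at the minimum level. Marker sums of other cells moved with the sorted groups as well. Besides the leukocyte, neuron and cartilage sums above, smooth muscle markers summed to 1616 and 268 CPM in the Bmp4 mutants (119 to 158 in their controls), endothelial markers to 192 and 168 CPM (22.5 to 87.1) and fibroblast and perichondrial markers to 10379 and 12910 CPM (5018 to 7704). Epithelial markers summed to 95.7 and 65.9 CPM (23.7 to 35.6). Their part in these lists was not tested.

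Of 16 RUNX partners, 4 fell (25%, against 15.6% of all genes) and none rose (against 39.3%). The median was -0.54 as deposited and -0.27 after subtraction. Those that fell were the co-repressor gene Tle3 (-0.68 ± 0.18 SE, edgeR adjusted p = 0.017), Twist1, whose protein restrains Runx2 (-1.26 ± 0.43, 0.043), the Hippo effector gene Yap1 (-0.89 ± 0.19, 0.007) and Lef1, a Wnt effector (-1.31 ± 0.25, 0.0048). None of the 15 tested after subtraction was called. Cbfb, the shared partner subunit of all Runx proteins, read 20.7 and 57.1 CPM in the mutants against 114, 67.3 and 66.4 CPM in the controls (adjusted p = 0.071). Both mutants were below every control. Libraries of the same group lay far apart in the mutants and, through control 1, in the controls. In the tracheas none of the 16 passed the rule of size.

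Of 21 genes of the osteoblast programme, 6 rose (28.6%, against 39.3% of all genes) and 1 fell (4.76%, against 15.6%). The median was 1.15 as deposited and 0.31 over the 11 tested after subtraction. Tnfrsf11b, which encodes the osteoclast inhibitor osteoprotegerin, rose by 1.91 ± 0.46 (SE, edgeR adjusted p = 0.011). Its controls read 2.25, 2.76 and 4.01 CPM and its mutants 8.84 and 13.7 CPM. It was also higher in the Wls mutant trachea at 7.84 CPM against 1.98 and 1.55 CPM, a log2 difference of 2.12, past the rule of size. Phex, an endopeptidase gene of bone cells, rose by 1.40 ± 0.33 in the sorted cells (edgeR adjusted p = 0.010), and Fgfr2 changed by -1.79 ± 0.54 (0.026). None of the 11 tested after subtraction was called, and neither Tnfrsf11b nor Phex was above background enough to be among them. The other 4 that rose (Bglap, Bglap2, Dmp1 and Mepe, genes of mature bone, named after their values were seen) had means of at most 2.18 CPM. Bglap read 7.60 and 0.566 CPM in the mutants, so its rise came mostly from mutant 1. Col1a1, the main bone collagen gene, missed the threshold at 0.59 (adjusted p = 0.10). In the tracheas Sost was lower at 0.903 CPM against 2.40 and 2.85 CPM, at a low level.

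Of 11 genes of the mineralization list, 6 rose (54.5%, against 39.3% of all genes) and 1 fell (9.09%, against 15.6%). The median was 1.81 as deposited and 0.16 over the 5 tested after subtraction. Enpp1, which makes the mineral inhibitor pyrophosphate, rose by 1.81 ± 0.32 (SE, edgeR adjusted p = 0.0036). Its controls read 9.84, 15.3 and 8.31 CPM and its mutants 46.7 and 31.5 CPM. The other 5 that rose (Alpi, Akp3, Alppl2, Phospho1 and Ahsg, named after their values were seen) had means of at most 1.62 CPM. Alpi, Akp3 and Alppl2, alkaline phosphatase genes other than Alpl, read 0 CPM in every sorted control. None of the 5 was above background enough to be tested after subtraction. The share of risers in this list thus rests mostly on genes at a low level. The subtracted change of Enpp1, 1.96, missed the threshold (adjusted p = 0.062). Mgp, an inhibitor of cartilage calcification, changed by -1.25 ± 0.37 (adjusted p = 0.023). None of the 5 tested after subtraction was called, and none of the 6 at the minimum level passed the rule of size in the tracheas.

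Of 16 genes of hypertrophic cartilage, 4 fell (25%, against 15.6% of all genes) and 5 rose (31.25%, against 39.3%). The median was -0.19 as deposited and -0.66 over the 8 tested after subtraction. Those that fell were the receptor gene Fgfr3 (-1.91 ± 0.52 SE, edgeR adjusted p = 0.019), Wnt5a (-1.50 ± 0.50, 0.038), the kinase gene Pkdcc (-1.25 ± 0.21, 0.0033) and Vegfa (-0.83 ± 0.28, 0.039). Col10a1, the collagen of hypertrophic chondrocytes, was among those that rose, at 3.51 and 1.42 CPM against at most 0.270 CPM, and is named after its values were seen. After subtraction none of 8 was called, and none of the 5 that rose, Col10a1 included, was above background enough to be among them. In the tracheas Bmp6 was lower at 2.87 CPM against 10.1 and 8.13 CPM and Scin at 1.15 CPM against 3.97 and 2.91 CPM, both past the rule of size.

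Of 15 tested genes of the hedgehog and parathyroid hormone-related loop, 6 fell (40%) and 2 rose (13.3%). The shares over all genes were 15.6% and 39.3%. The median was -0.46 as deposited and -0.24 over the 12 tested after subtraction. Gli1, a direct hedgehog target, read 72.5, 53.0 and 51.9 CPM in the controls and 21.0 and 22.1 CPM in the mutants. It fell as deposited (-1.46 ± 0.21 SE, edgeR adjusted p = 0.0033) and remained called after subtraction (-1.38, adjusted p = 0.045). With the background of like GC content it missed the threshold (-1.27, edgeR adjusted p = 0.054). Gli2 (-0.97 ± 0.15, 0.0033), Gli3 (-1.08 ± 0.17, 0.0033) and the co-receptor gene Boc (-0.93 ± 0.27, 0.024) also fell as deposited. Pthlh, the ligand gene of Pth1r, read 7.45 and 14.1 CPM in the mutants against 10.7, 4.24 and 5.34 CPM in the controls, which overlapped. None of 14 passed the rule of size in the tracheas, where Gli1 read 73.3 CPM against 97.8 and 144 CPM.

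Of 8 tested Dlx and Msx relatives, 1 fell (12.5%, against 15.6% of all genes) and 3 rose (37.5%, against 39.3%). The median was 0.97. Msx2, a homeobox gene downstream of BMP signals, fell from 61.1, 58.2 and 46.3 CPM to 2.92 and 6.80 CPM (-3.49 ± 0.38 SE, edgeR adjusted p = 0.0033), and missed the threshold after subtraction (adjusted p = 0.092). In the Wls mutant trachea it read 2.14 CPM against 9.92 and 9.40 CPM, past the rule of size with a log2 difference of -2.14. Msx2 and Sp7 were thus both lower in both experiments, as were Sox9 and Gdf5 of the next list. Dlx1 rose by 0.79 ± 0.27 (edgeR adjusted p = 0.039). Neither of the 2 tested after subtraction was called.

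Of 12 genes of the Nkx3-2 and sclerotome list, 6 fell (50%, against 15.6% of all genes) and 5 rose (41.7%, against 39.3%). The median was -0.84 as deposited and -1.39 over the 7 tested after subtraction. The cartilage transcription factor genes Sox9 (-1.99 ± 0.56 SE, edgeR adjusted p = 0.021) and Sox5 (-1.50 ± 0.19, 0.0033), the forkhead gene Foxc2 (-2.24 ± 0.53, 0.010) and the joint ligand gene Gdf5 (-1.99 ± 0.33, 0.0033) fell. Sox6 fell as deposited (-1.23 ± 0.16, 0.0033) and after subtraction (-1.28, adjusted p = 0.036), and is named after its values were seen. In the tracheas Sox9 (75.6 CPM against 194 and 172) and Gdf5 (8.62 CPM against 34.8 and 30.6) were lower, past the rule of size. Meox2, a homeobox gene of somites, was the 1 gene of those that rose with a mean of at least 5 CPM (1.46 ± 0.43, adjusted p = 0.023), and is also named after its values were seen.

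**Figure D4:**
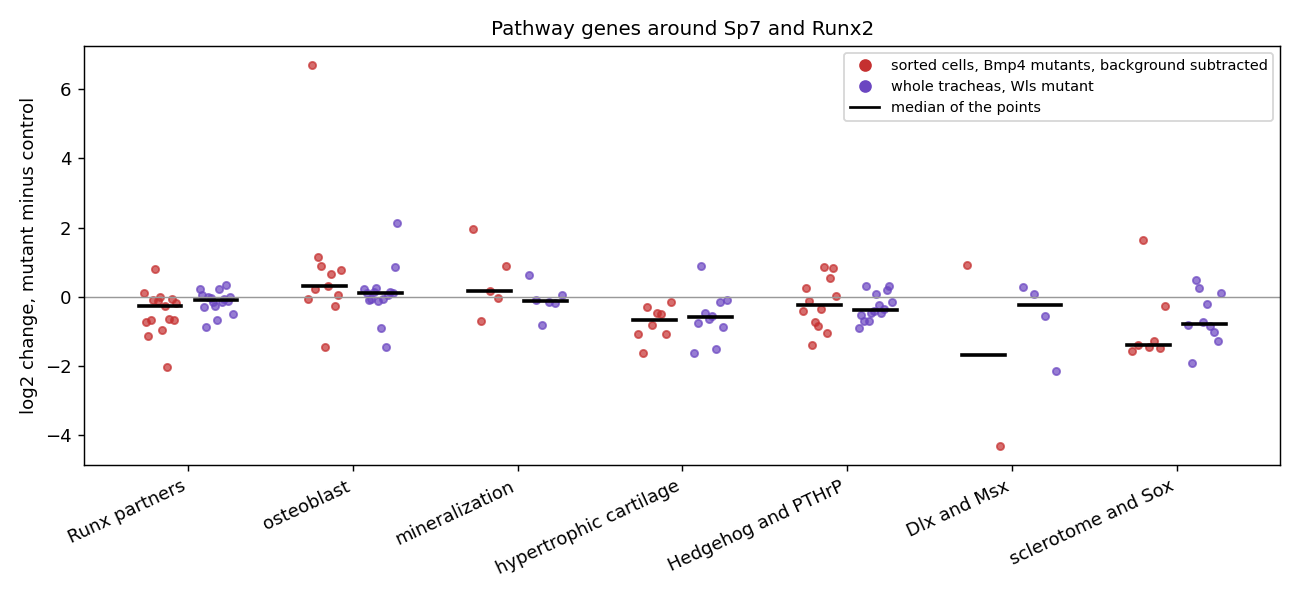
Log2 change from control to mutant of the genes of the 7 lists, with each gene as a point and the list's median as a bar, for the sorted cells after background subtraction (red) and for the Wls mutant trachea (purple). RUNX partners had medians of -0.27 and -0.09, the hypertrophic cartilage list -0.66 and -0.59, and the sclerotome list -1.39 and -0.78.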

How the data were processed

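The authors deposited whole-number read counts per gene symbol, 1 table for the 5 sorted-cell libraries and 1 for the 3 tracheas. Per the submitters' processing notes, the build was mm10 and the tools included Trim Galore (sorted cells), Bowtie2, Cufflinks and DESeq, without roles or versions. For the counting program and its strand setting, the sources used here give nothing. The Cre driver of the sorted-cell experiment is not reported here. Per the labels' protocols, cells were sorted by FACS, and different kits were used for sorted cells and tracheas.

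Counts were fitted in R 4.3.3 with edgeR 4.0.16 (TMM scaling, its filter on low counts by group, quasi-likelihood F test) over all genes, and called at a Benjamini-Hochberg adjusted p under 0.05. Residual degrees of freedom were 3 in the sorted-cell fit and 1 in the trachea fit, which is why tracheas were read with the rule of size (prior count 2). Standard errors were derived from fold changes and F statistics. The background rate of each sorted library, in counts per kb of GENCODE exon, was taken from the silent genes without olfactory, vomeronasal and trace amine receptors. It was multiplied by each gene's exon length and subtracted. Genes were tested after subtraction where their mean CPM per kb over all sorted libraries, mutants included, was at least 2 times the mean mutant rate (10554 genes). GENCODE held 23125 of the 23478 symbols (98.5%). Promoter sequences are from RefSeq, GRCm38.p6. Scripts were tested on simulated data.

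The members and lists were chosen with earlier results of these data known. From each list the text names up to 4 called genes with the largest changes at a mean of at least 5 CPM, and up to 3 genes past the rule of size in the tracheas. Depth limits the low genes: counts carry no molecular identifiers, so Poisson intervals cover counting error only. Replicate pairs differed by 24.5 to 193 times counting variance. Sums of marker genes carry no TMM factor. In the Wls mutant trachea and its controls, other marker lists summed in CPM to 897, 659 and 570 (airway epithelium), 254, 318 and 375 (endothelium), 2713, 1953 and 1690 (smooth muscle), 7401, 9301 and 7432 (fibroblasts and perichondrium) and 249, 249 and 254 (neurons and neural crest). Alternatives were other scalings, no filter, DESeq2 1.42.0, leaving out each library, the replicate block and the background subtraction.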

Additional observations from a re-analysis of the deposited data

How the results depend on the processing

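In the sorted cells 11888 genes were called, against 184 with the background subtracted, 158 with the background of like GC content (added after seeing the data), 4 with the replicate number as a block and 3595 to 10478 without 1 library. DESeq2 called 12655. Among pathway genes, the 23 called lower became 2, 1 and 0 under these first 3 settings, 15 with scaling on genes above background and 11 to 23 without 1 library. The 27 called higher became 0, 0 and 0, and 5 to 29 without 1 library. At an unadjusted edgeR p under 0.05 the block still had 23 lower and 23 higher, and the GC setting 16 and 10. Deviations from the group mean had r = -0.17 and -0.11 between same-numbered libraries. With 2 mutants these deviations mirror each other, so the r values cannot show whether the numbers mark pairs. No paired analysis was possible for the tracheas, whose labels give no shared replicate numbers. The 259 genes past the trachea rule of size became 844 without the minimum level, 676 by edgeR with 1 residual degree of freedom and 367 to 585 without 1 control; the 7 pathway genes became 21 by edgeR and 7 to 12 without 1 control. Of the 19 named lower list genes, 8 were still called without Bmp4 mutant 1 (lost were Tle3, Twist1, Yap1, Fgfr2, Mgp, Fgfr3, Wnt5a, Vegfa, Boc, Sox9 and Foxc2) and 13 without mutant 2. Leaving out a control kept 14, 16 and 18 of them. Of the 4 named higher genes, 2 were called without mutant 1 and 1 without mutant 2. These 19 and 4 genes kept their sign in every fit that tested them. Tnfrsf11b, Phex and Foxc2 were not tested in the subtracted fits. Sp7 ranged from -3.90 to -1.83 in the sorted cells and from -1.74 to -1.66 in the tracheas, and all 10 genes kept their sign in the sorted-cell fits made. For 7 of them these hold no subtracted fit, and the subtracted mutant means of Dlx6 and Nkx3-2 were below 0 and that of Alpl was 0.959 times its controls. The subtracted Ihh mutants were 1.48 and -1.47 CPM, against a subtracted control mean of 0.416 CPM. In the tracheas Runx2 (0 to 0.48), Ihh (-0.08 to 0.08) and Pth1r (-0.25 to 0.03) did not keep their sign. Depth limits Dlx6, Ihh and Nkx3-2 most. The causes were not tested.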
